A study of Mus musculus with 8 samples.

Results

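Cytosolic ribosomal protein genes were followed in mouse embryonic fibroblasts (MEFs) during reprogramming. They were taken by symbol: every gene named Rpl or Rps followed by a number, with or without a short suffix, together with Rplp0, Rplp1, Rplp2 and Rpsa, and without symbols that carry -ps for pseudogene. The rule found 89 of the 55487 genes in the table, of which 53 belong to the large and 36 to the small subunit by name. The annotation calls 83 of them coding and 6 processed pseudogenes (Rps12l1, Rpl32l, Rpl6l, Rps3a2, Rps3a3 and Rps4l). A filter on low counts kept 86 members among the 19392 genes tested. The other 3, Rps12l1, Rpl10l and Rpl3l, had too few reads.

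The cells were i4F MEFs, C57BL/6, with 1 copy each of a Rosa26 rtTA transactivator and of a tetracycline-responsive cassette of Oct4, Sox2, Klf4 and Myc (OSKM), so that doxycycline induces the factors in any cell that reads both transgenes. All libraries came from cells given doxycycline for 72 h in iPSC medium, and differed in what else was added. B12 + MAT2Ai cells were given vitamin B12 at 2 µM and PF-9366, which inhibits MAT2A, also at 2 µM. SAM cells were given S-adenosylmethionine at 100 µM, NSC cells NSC636819, which inhibits both KDM4A and KDM4B, at 10 µM, and B12 cells only vitamin B12 at 2 µM. SAM and NSC cells were given no added vitamin B12, so their comparisons with B12 cells differ in that as well. MAT2A makes SAM, the methyl donor, from methionine, and KDM4 enzymes remove methyl groups from histone H3. Each treatment was applied to MEFs of the same 2 embryos, 61.5 and 61.3, which gives 8 libraries and n = 2 per treatment; p-values between treatments therefore rest on these 2 embryos. The labels give a doxycycline dose of 1 µg/mL, the series' design text a higher one. No library with doxycycline alone was analysed here.

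The cytosolic ribosome is built from ribosomal RNA and a fixed set of proteins, each present in about equal number in a small subunit, which reads the message, and a large subunit, which joins the amino acids. In proliferating cells the genes of these proteins are among the most highly transcribed, and excess protein of single subunits is degraded. Their mRNAs start with a C and a run of pyrimidines, the terminal oligopyrimidine (TOP) motif, through which the kinase mTORC1 and the binding protein Larp1 control translation. Myc activates many genes of ribosome production.

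These start sites are shown because the motif is what the messages of the family have in common besides their product. Of the 83 coding members, 63 were matched by symbol in a RefSeq table of promoters on GRCm38.p6, the build of the counts. A C at the annotated start, followed by at least 4 C or T, was found for 13 of the 63 (20.6%), against 3.01% of the 27025 genes in the table. Starting within 10 bases of the annotated start, such a run was found for 39 (61.9%), against 34.4%. Each line below gives 10 bases before and 20 from the annotated start, with the pyrimidine run in capitals.
Rps6, chr4:86857348-86857377, minus strand: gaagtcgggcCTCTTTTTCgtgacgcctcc
Rpl15, chr14:18270967-18270996, minus strand: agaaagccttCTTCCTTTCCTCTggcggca
Rps18, chr17:33955646-33955675, minus strand: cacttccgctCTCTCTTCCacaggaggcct
Rps27, chr3:90213629-90213658, minus strand: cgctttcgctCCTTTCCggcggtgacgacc
Rplp2, chr7:141447641-141447670, plus strand: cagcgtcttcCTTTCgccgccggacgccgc
Rpl4, chr9:64173377-64173406, plus strand: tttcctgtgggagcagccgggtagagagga

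Rpl4 is the member with the largest difference between treatments (below), and its annotated start had no such run at this base. Its window shows pyrimidines just upstream, so the count depends on where a start is drawn. Among other letters searched on both strands of the 300-base promoters (250 before and 50 after the start), the core of ETS factor sites, CCGGAAG, was in 26 of the 63 members (41.3%) and in 9.93% of all genes. The YY1 core AAGATGG was in 10 (15.9%, against 7.28%), the E-box CACGTG bound by Myc in 6 (9.52%, against 8.09%) and TATAAA in 7 (11.1%, against 15.7%). A match describes the letters only. Among members called between treatments below, Rps25, Rpl6 and Rpl37 carried the ETS core, and Rpl4 and Rps4x did not. That of Rps25 and Rpl6 is in capitals here, in the 120 bases before and 20 from the start.
Rps25, chr9:44407594-44407733, plus strand: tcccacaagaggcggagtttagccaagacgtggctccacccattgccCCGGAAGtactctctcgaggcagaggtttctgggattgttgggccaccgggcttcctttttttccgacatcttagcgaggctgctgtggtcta
Rpl6, chr5:121204381-121204520, plus strand: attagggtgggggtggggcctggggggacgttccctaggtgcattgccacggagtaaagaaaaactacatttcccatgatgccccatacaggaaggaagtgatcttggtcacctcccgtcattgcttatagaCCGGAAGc

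Libraries held 27498180 to 38565685 counted reads. Mitochondrially encoded genes took 1.23% to 1.69% of them, except 2.33% in the NSC library of MEF 61.3. Fibroblast markers summed to 79880 to 105000 CPM (counts per 1000000 counted reads), and erythroid markers to at most 0.40 CPM. Macrophage markers were present in every library and differed between them. Their 17 genes summed to 2397 and 4726 CPM with B12 + MAT2Ai, 635 and 1843 with SAM, 2203 and 4016 with NSC, and 2991 and 5232 with B12 (MEF 61.5 and MEF 61.3 in each), and none of the 17 was at 0. In such bulk samples a change in the share of one cell type and a change per cell cannot be told apart.

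Ribosomal protein genes took 2.02% to 2.97% of counted reads, with the highest share in SAM-treated MEF 61.5 and the lowest in NSC-treated MEF 61.3. The share was 2.67% and 2.46% with B12 + MAT2Ai, 2.97% and 2.38% with SAM, 2.55% and 2.02% with NSC, and 2.46% and 2.30% with B12, in MEF 61.5 and MEF 61.3 (Wilson 95% intervals at most 0.0121 percentage points wide, counting error only). In each treatment the share was higher in MEF 61.5. It averaged 2.66% ± 0.23 in MEF 61.5 and 2.29% ± 0.19 in MEF 61.3 (SD, n = 4 each). The treatment means were 2.57% (B12 + MAT2Ai), 2.68% (SAM), 2.28% (NSC) and 2.38% (B12), with an SD of 0.11 to 0.42 percentage points (n = 2). That SD reflects the difference between the embryos, from 0.158 (B12) to 0.597 (SAM) percentage points, so treatments are compared within a MEF below. Macrophage markers were lower in MEF 61.5 in each treatment and lowest with SAM; their part in the share was not tested.

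**Figure D1:**
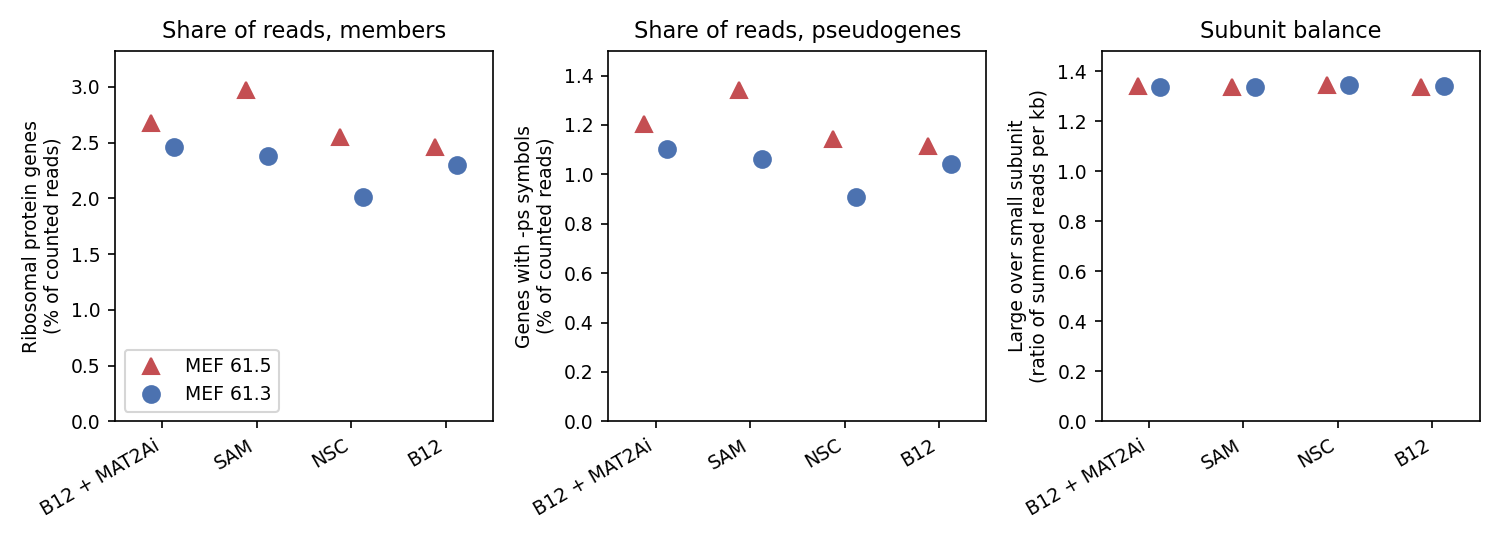
Percent of counted reads in the 89 members (left) and in the 300 genes with -ps symbols (middle), and the ratio of large to small subunit members in summed reads per kilobase (right), by treatment, with 1 point per library (triangles MEF 61.5, circles MEF 61.3). The shares ran from 2.02% to 2.97% and from 0.91% to 1.34%, and the ratio from 1.3351 to 1.3465.

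Compared within a MEF, the direction of the share was the same in both embryos in each comparison of treatments except NSC against B12. With B12 + MAT2Ai it was higher than with B12 by 8.73% of its value in MEF 61.5 and by 6.91% in MEF 61.3. With SAM it was higher than with B12 by 20.97% and 3.32%, a difference that rested mainly on MEF 61.5. With NSC it differed from B12 by 3.6% in MEF 61.5 and by −12.34% in MEF 61.3. With NSC it differed from SAM by −14.36% in MEF 61.5 and by −15.15% in MEF 61.3. With 1 library per MEF and treatment these differences carry no test.

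Genes with -ps symbols, annotated copies of the same family, kept a near-fixed ratio to the members. These 300 genes held 1.20% and 1.103% of reads with B12 + MAT2Ai, 1.34% and 1.06% with SAM, 1.14% and 0.91% with NSC, and 1.11% and 1.04% with B12 (MEF 61.5 and MEF 61.3). Their reads came to between 44.6% and 45.3% of the members' reads in every library. The spread of that ratio over all 8 libraries was 0.23 percentage points (SD) around a mean of 44.99%. Of the 193 that were tested, 0 passed with B12 + MAT2Ai against B12 (median log2 fold change 0.07), 1 was higher with SAM against B12 (0.13), 0 passed with NSC against B12 (−0.06), 11 were lower with NSC against SAM (−0.20) and 40 were higher in MEF 61.5 against MEF 61.3 (0.14). Over all genes, 2.78% were higher with SAM against B12, 4.42% lower with NSC against SAM and 8.41% higher in MEF 61.5.

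The division of reads among near-identical copies is uncertain. Of the 89 members, 85 shared at least 1 stretch of 75 bases, the read length, with a transcript of another gene, and 37 shared at least 50% of such stretches (median over members 47.4%). Rps3, Rpl39l and Rpl3l were among those that shared none, whereas Rps27 shared 98.5%, mostly with its copy Rps27rt. Rps3a2, a processed pseudogene, had 9949 to 14084 reads, 59.9% to 62.9% of those of its coding relative Rps3a1. Rpl6l had 37.8% to 39.2% of the reads of Rpl6. Conversely Rps12l1, all of whose 75-base stretches are shared, had 0 reads in every library, where Rps12 had 8903 to 13167. How reads that match several genes were treated is not given in the sources used here.

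Per length, the level differed between members. CPM per kilobase of transcript (RPKM) values were computed with 1 annotated transcript per gene, so a gene with a long annotated form, such as Rps15a with 5130 bases or Rps20 with 3706, is given a low value. The highest were Rplp1, an acidic protein of the stalk that recruits elongation factors, with a mean of 1139 RPKM over the 8 libraries (910.4 to 1352), Rpl41, the smallest ribosomal peptide, with 930 (756 to 1053), Rplp0, the base of the stalk, with 784 (653 to 916), Rpl10, which joins late and completes the large subunit, with 675 (543 to 833), and Rps15 of the small subunit head with 643 (531 to 766). These ranges overlap between neighbours in the order.

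**Figure D2:**
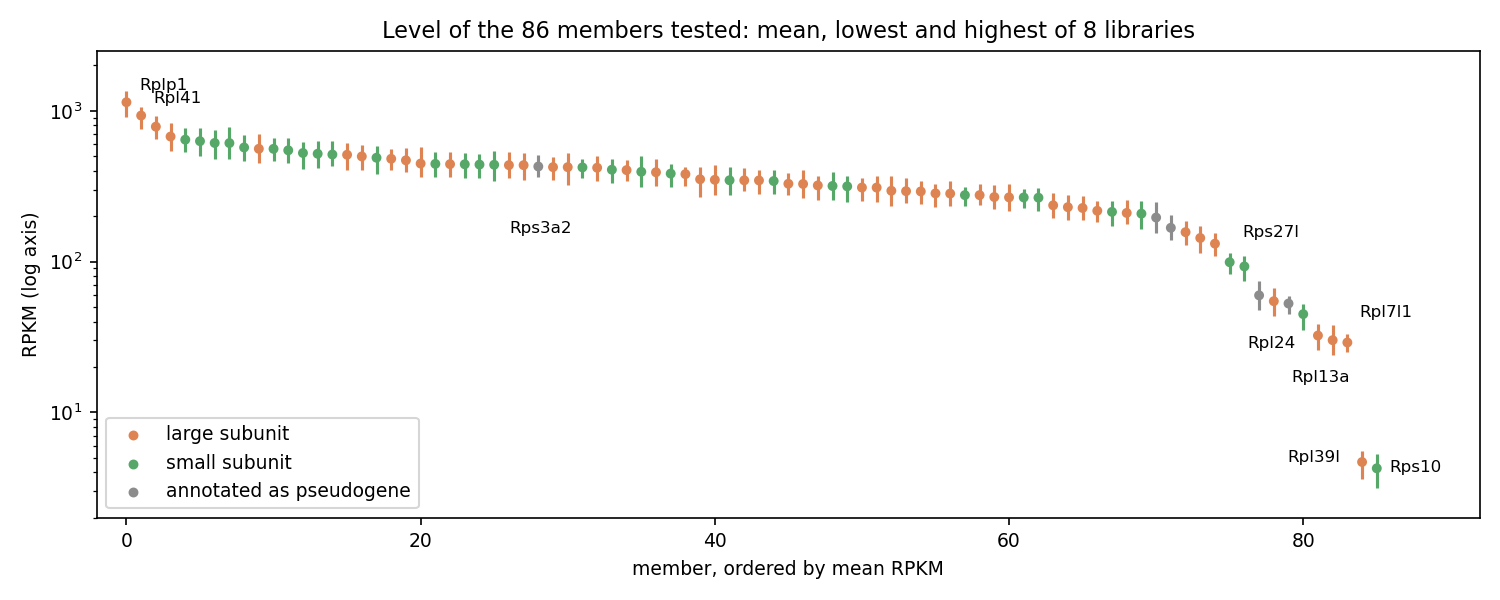
Mean RPKM (points) and the range from the lowest to the highest library (lines) of the 86 members tested, in order of the mean, on a log axis; colours mark subunit and the members annotated as pseudogenes. Most members lie between 100 and 1000 RPKM, and Rpl39l and Rps10 near 4.7 and 4.3.

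Some coding members at the low end shared exons with another annotated gene. Rps10 had 89 to 167 reads per library and a mean of 4.26 RPKM, and 53.6% of its exonic bases are also those of the readthrough gene RPS10-NUDT3 on the same strand. Rpl24 (32.4 RPKM, 71.5% shared with Gm28037) and Rpl13a (30.1 RPKM, 59.3% shared) were alike in this. No other member had more than 50% of its exons shared on the same strand, and reads of these 3 genes are reported as uncertain.

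The paralogs of testis or striated muscle, Rpl39l, Rpl10l and Rpl3l, were low or absent, whereas Rpl22l1, Rpl7l1 and Rps27l had higher levels. Rpl39l, which replaces Rpl39 in the testis, averaged 3.77 CPM and 1.57% to 2.27% of the reads of Rpl39. Rpl10l, the testis retrogene of Rpl10, had 0 reads in every library, which allows 0.0778 to 0.109 CPM (3 reads). Rpl3l, the form of striated muscle, had 3 reads in NSC-treated MEF 61.3, 1 in NSC-treated MEF 61.5 and 0 in the other 6 libraries. Rpl22l1, which Rpl22 is known to hold down in mice, had 18.2% to 20.2% of the reads of Rpl22, Rpl7l1, a nucleolar relative of Rpl7, 14.2% to 16.2% of those of Rpl7, and Rps27l, a p53 target, 24.5% to 29.7% of those of Rps27.

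The balance of reads among the members differed little between libraries. The ratio of large to small subunit members, in summed reads per kilobase, was 1.3416 and 1.3351 with B12 + MAT2Ai, 1.3352 and 1.3354 with SAM, 1.3461 and 1.3465 with NSC, and 1.3387 and 1.3397 with B12 (MEF 61.5 and MEF 61.3), with a mean of 1.34 ± 0.0047 over the 8 libraries (SD). NSC was above SAM by 0.82% of the ratio in MEF 61.5 and by 0.83% in MEF 61.3, and above B12 by 0.55% and 0.51%. As a share of the members' total, each of the 84 members with at least 10 CPM was set against its own mean over the libraries. The SD of these log2 deviations over members was 0.047 and 0.042 with B12 + MAT2Ai, 0.048 and 0.038 with SAM, 0.039 and 0.036 with NSC, and 0.033 and 0.042 with B12.

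In no library did any of the 84 deviate by more than 0.5 on the log2 scale. The farthest were Rpl24 at 0.18 (B12 + MAT2Ai, MEF 61.3), Rps26, which lines the path of the message, at 0.15 (B12 + MAT2Ai, MEF 61.5), and Rps27l at −0.16 (NSC, MEF 61.5). Rpl4 was the highest of the 84 in both SAM libraries, at 0.11 in MEF 61.5 and 0.09 in MEF 61.3. The share of the whole set, for comparison, differed from that with B12 by up to 20.97% within 1 MEF.

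To ask whether blocking MAT2A changed these genes, B12 + MAT2Ai was compared with B12. No member passed the test: 0 of 86 were called higher, where 0.0722% of all genes were, and 0 lower, where 0.0155% were (edgeR quasi-likelihood test, adjusted p below 0.05; 4 members and 1575 of all genes had an unadjusted p under 0.05, and DESeq2 called 0 members). The log2 fold changes lay above 0 for 85 members, with a median of 0.08 and a range of −0.015 to 0.21, beside a median of 0.00 over all genes. The largest was Rps26, with 309 and 268 CPM with B12 + MAT2Ai against 260.0 and 238 CPM with B12 (MEF 61.5 and MEF 61.3; 0.21 ± 0.07, SE, adjusted p = 0.555). The 2 groups of Rps26 did not overlap. Rps6, the substrate of the S6 kinases below mTORC1, had 410.3 and 401 CPM with B12 + MAT2Ai and 381 and 370 CPM with B12 (0.11 ± 0.07, adjusted p = 0.707). Among members the standard error had a median of 0.069.

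**Figure D3:**
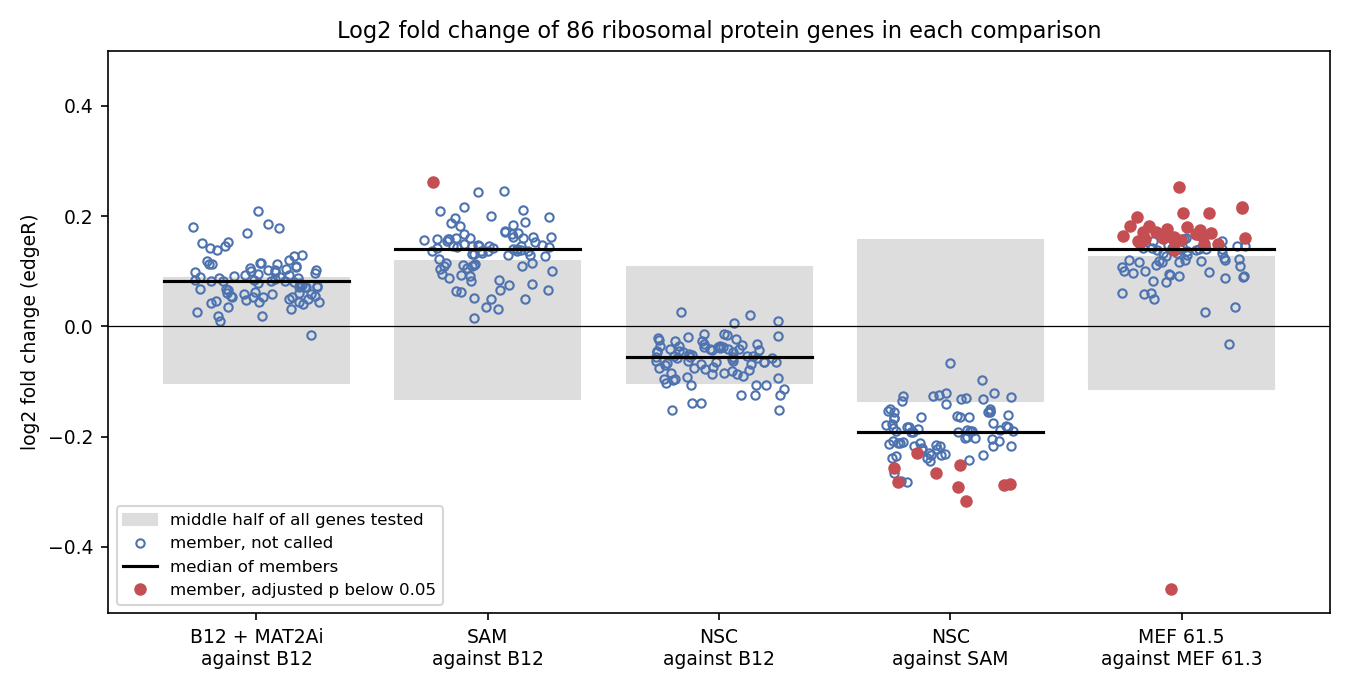
Log2 fold change of the 86 members tested in each of the 5 comparisons (open circles, not called; filled, adjusted p below 0.05), with the median of the members (black line) and the interquartile range of all genes tested (grey). Of the 86, 85 lie above 0 with B12 + MAT2Ai and all with SAM against B12, and all lie below 0 with NSC against SAM.

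SAM, the product of the MAT2A reaction, was compared with B12 next. Of the 86 members 1 was called higher, where 2.78% of all genes were, and 0 lower, where 4.93% were. All 86 log2 fold changes were above 0, with a median of 0.14 and a range of 0.015 to 0.26, beside a median of −0.002 over all genes. An unadjusted p under 0.05 was found for 29 members and for 3812 of all genes (19.66%). DESeq2 also called 1 higher and 0 lower. The called member was Rpl4 (ENSMUSG00000032399, GRCm38, chr9:64173375-64178666), which lines the exit tunnel of the large subunit. It had 855 and 716 CPM with SAM against 665 and 641 CPM with B12 in MEF 61.5 and MEF 61.3. Both SAM libraries lay above both B12 libraries, and the log2 fold change was 0.26 ± 0.07 (SE, adjusted p = 0.0339).

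Rpl4 passed in 6 of 14 alternative fits, with an adjusted p of 0.000558 to 0.661. With MEF not a term of the model no member passed, nor did any of the 19392 genes. Rpl4 also lost its call when some of the single libraries were left out. Without the SAM or the B12 library of MEF 61.3 the median of the members was 0.203 and 0.204. Without the SAM or the B12 library of MEF 61.5 it was 0.073 in each fit. The difference was uneven between the embryos. Within MEF 61.5 the median member differed by 0.24 on the log2 scale (85 of 86 above 0), and within MEF 61.3 by 0.04 (67 of 86 above 0). Rplp1 had 651 and 557 CPM with SAM and 550.2 and 544 CPM with B12 (0.14 ± 0.08, adjusted p = 0.364). Rps4x, the X-linked small subunit protein, had 729 and 609 CPM with SAM and 575 and 551 CPM with B12 (0.24 ± 0.08, adjusted p = 0.0801). Rpl41 differed less, with 535 and 480.2 CPM with SAM and 521 and 472 CPM with B12, a difference of 0.03 ± 0.065 on the log2 scale (adjusted p = 0.859).

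**Figure D4:**
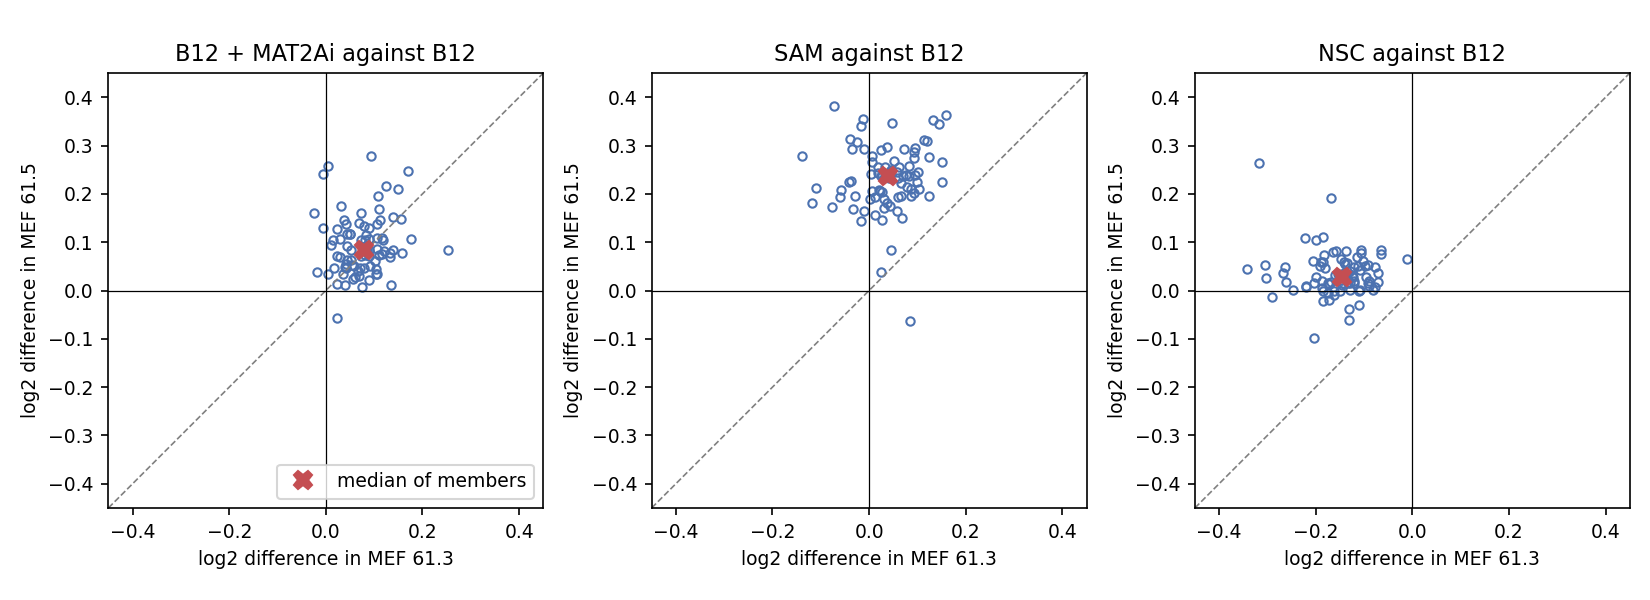
Log2 difference of each of the 86 members within MEF 61.5 (vertical axis) against that within MEF 61.3 (horizontal axis), for B12 + MAT2Ai, SAM and NSC against B12, with the median of the members as a cross and the line of equality dashed. The medians were 0.08 and 0.08 for B12 + MAT2Ai, 0.24 and 0.04 for SAM, and 0.03 and −0.15 for NSC (MEF 61.5 and MEF 61.3); the comparisons share the B12 libraries.

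NSC, the inhibitor of KDM4A and KDM4B, given without added B12, was compared with B12 as well. With NSC 0 of 86 members were called higher, where 0.284% of all genes were, and 0 lower, where 1.62% were; no member had an unadjusted p under 0.05, against 2412 of all genes, and DESeq2 called 0. The median log2 fold change was −0.06 and the range −0.15 to 0.027. The embryos differed in direction: within MEF 61.3 all 86 members were lower with NSC than with B12 (median −0.15), and within MEF 61.5 73 of 86 were higher (median 0.03). Rplp0 had 1113 and 935 CPM with NSC against 1067 and 1004 CPM with B12 (MEF 61.5 and MEF 61.3). The NSC library of MEF 61.3 was the low one and also the one with the most mitochondrial reads (2.33%). With mitochondrially encoded genes left out of the total, its share of member reads differed from that with B12 by −11.69%, against −12.34% with them. Without the B12 library of MEF 61.3 the median was 0.005.

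NSC against SAM gave the most calls among treatments. Of 86 members, 9 were called lower, where 4.42% of all genes were, and 0 higher, where 5.1% were. An unadjusted p under 0.05 was found for 68 members and for 4835 of all genes (24.93%), and DESeq2 called 8 members lower and 0 higher. All 86 log2 fold changes were below 0, with a median of −0.19 and a range of −0.32 to −0.07, beside a median of 0.011 over all genes. Unlike with SAM or NSC against B12, the median was alike in the embryos, −0.20 within MEF 61.5 and −0.18 within MEF 61.3, and 84 and 86 of the members were below 0.

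The called members came from both subunits. Rpl4 fell most, to 665 and 594 CPM with NSC against 855 and 716 CPM with SAM in MEF 61.5 and MEF 61.3. Its NSC and SAM libraries did not overlap, and the log2 fold change was −0.32 ± 0.07 (SE, adjusted p = 0.0129). Rpl6l, the annotated pseudogene, had 169 and 142 CPM with NSC against 209 and 171 CPM with SAM (−0.29 ± 0.07, adjusted p = 0.0214), and its coding relative Rpl6 had 436 and 373 CPM with NSC against 539 and 446 CPM with SAM (−0.28 ± 0.07, adjusted p = 0.0253). Of the 75-base stretches of Rpl6l 53.7% are also in Rpl6, where the reads of the 2 genes cannot be told apart. Rps4x had 607 and 491 CPM with NSC against 729 and 609 CPM with SAM (−0.29 ± 0.08, adjusted p = 0.036).

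In each of these members the library of NSC-treated MEF 61.3 was the lowest of the 4 and that of SAM-treated MEF 61.5 the highest. Rps25, Rpl37 and Rpl17 were also called, with log2 fold changes of −0.27, −0.26 and −0.23. In Rpl17 the NSC library of MEF 61.5 lay above the SAM library of MEF 61.3, so that the groups overlapped. Rpl41 differed least, with 538 and 434 CPM with NSC and 535 and 480.2 CPM with SAM (−0.07 ± 0.065, adjusted p = 0.574).

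The number of calls against SAM moved widely with the fit, while the median kept its sign. It was 0 without the SAM library of MEF 61.5, without the NSC library of MEF 61.3 or with MEF not a term of the model, 1 without the NSC library of MEF 61.5, 3 without either B12 + MAT2Ai library, 15 without the SAM library of MEF 61.3, 32 without either B12 library, and 72 with only the 4 NSC and SAM libraries in the fit. Lower calls over all genes moved with it: 858 of 19392 in the fit reported, 289 without the SAM library of MEF 61.5, 304 without the NSC library of MEF 61.3, 0 with MEF not a term, 1304 and 1307 without a B12 library, and 1689 of 18813 with only the libraries compared. The median without each library in turn ran from −0.26 to −0.13. Macrophage markers differed between these groups too (2203 and 4016 CPM with NSC, 635 and 1843 CPM with SAM); their part was not tested. Mitochondrial reads also differed (1.69% and 2.33% with NSC, 1.23% and 1.66% with SAM). With them left out of the total, the share of member reads with NSC differed from that with SAM by −13.95% in MEF 61.5 and −14.56% in MEF 61.3, against −14.36% and −15.15% with them.

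Members with known roles outside the ribosome, and the stalk, had differences of like size. Rpl5 and Rpl11, which with the small ribosomal RNA bind Mdm2 when ribosome assembly is disturbed, had log2 fold changes of 0.16 ± 0.06 and 0.14 ± 0.07 with SAM against B12, and −0.21 ± 0.06 and −0.18 ± 0.07 with NSC against SAM; neither passed in these 2 comparisons (lowest adjusted p = 0.0585). Rps19, the gene most often mutated in Diamond-Blackfan anaemia, had 267 and 230.1 CPM with NSC, 303 and 264 CPM with SAM, and 264 and 252 CPM with B12. Rpsa, also known as the laminin receptor, had 862 and 707 CPM with NSC, 976 and 780.2 CPM with SAM, and 853 and 773 CPM with B12. The SAM library of MEF 61.5 was the highest of the 8 and the NSC library of MEF 61.3 the lowest for each of these 4 genes. The same held for Rplp2, the partner of Rplp1 in the stalk, with 206.0 and 179 CPM with NSC, 238 and 192 CPM with SAM, and 195 and 193 CPM with B12.

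Subsets of the family had like medians. For the 51 large and 35 small subunit members tested, the median log2 fold change was 0.14 and 0.14 with SAM against B12 and −0.19 and −0.20 with NSC against SAM. For the 13 members with a C and pyrimidines at the RefSeq start, listed above in part, it was 0.14 and −0.19. For the 13 members that shared under 10% of their 75-base stretches, it was 0.14 and −0.20, and for the 36 that shared at least 50%, 0.15 and −0.21. The 5 paralogs tested had a median of 0.07 with SAM against B12, the lowest of these subsets, with Rpl39l at 0.015 ± 0.15 and Rps27l at 0.035 ± 0.07; these were not tested against the rest. Rps27l had 44.5 and 43.6 CPM with NSC, 54.1 and 46.2 CPM with SAM, and 47.7 and 50.2 CPM with B12.

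The comparison of the embryos gave more called members than any between treatments in the fit reported. It set 4 libraries against 4, where treatments had n = 2. Its standard errors were smaller, with a median over members of 0.049 against 0.069 between treatments. The median log2 fold change of the members was larger in size with NSC against SAM (−0.191) than between the embryos (0.14). In MEF 61.5 against MEF 61.3, over the 4 treatments, 30 of 86 members were called higher, where 8.41% of all genes were, and 1 lower, where 10.3% were. The median of the members was 0.14, beside 0.005 over all genes. Rps26 was the highest, at 291 ± 34.2 CPM in MEF 61.5 and 244 ± 18.8 CPM in MEF 61.3 (SD, n = 4 each; log2 fold change 0.25 ± 0.05, edgeR adjusted p = 0.00558). Rpsa was at 890 ± 57.7 CPM in MEF 61.5 and 766 ± 41.3 CPM in MEF 61.3, with no overlap between the embryos (0.22 ± 0.05, edgeR adjusted p = 0.0106), and Rplp0 at 1120 ± 56.7 CPM in MEF 61.5 and 1006 ± 52.8 CPM in MEF 61.3 (0.16 ± 0.05, edgeR adjusted p = 0.0472).

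Each embryo is 1 animal, so this compares 2 embryos and not kinds of embryo. The 1 member called lower was Rps10, the gene that overlaps RPS10-NUDT3. It had 3.12, 3.39, 3.36 and 2.79 CPM in MEF 61.5 and 4.71, 4.34, 3.83 and 4.79 CPM in MEF 61.3 (B12 + MAT2Ai, SAM, NSC and B12), which did not overlap (−0.48 ± 0.11, edgeR adjusted p = 0.0133). The count of calls was 2 (1 higher, 1 lower) without the NSC library of MEF 61.3, 3 without that of MEF 61.5 and 6 to 8 without a SAM or B12 + MAT2Ai library, and 52 without either B12 library. Calls over all genes were 1631 higher and 2005 lower of 19392 in the fit reported. They were 977 and 1396 of 20038 without the NSC library of MEF 61.3, 1175 and 1527 of 20078 without the SAM library of MEF 61.3, and 1600 and 2206 of 20048 without the B12 library of MEF 61.3. Macrophage markers, at 2056 ± 1005 CPM in MEF 61.5 and 3954 ± 1493 CPM in MEF 61.3, moved the other way; their part was not tested.

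Other genes of protein synthesis were counted from lists made with earlier results of these data known. Among 16 genes of elongation and other known TOP mRNAs, which include the initiation factor genes Eif3e, Eif3f, Eif3h and Eif4b, 0 passed with B12 + MAT2Ai against B12 (median 0.08), 2 were higher with SAM against B12 (median 0.16), 0 passed with NSC against B12 (median −0.05) and 5 were lower with NSC against SAM (median −0.21). For comparison, 2.78% of all genes were higher with SAM against B12 and 4.42% lower with NSC against SAM. Eef1a1, which brings charged tRNA to the ribosome, fell to 4335 and 3795 CPM with NSC against 5229 and 4657 CPM with SAM (−0.28 ± 0.07, adjusted p = 0.0236). Nap1l1, a histone chaperone with a TOP mRNA, had 338 and 301 CPM with SAM against 277 and 271 CPM with B12 (0.22 ± 0.06, adjusted p = 0.049).

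Ribosomal components that the symbol rule leaves out were few. Rack1, a small subunit protein that anchors signalling kinases, fell to 618 and 517 CPM with NSC against 769 and 652 CPM with SAM (−0.32 ± 0.08, adjusted p = 0.0212). Fau, whose product is cut to a ubiquitin-like protein and a ribosomal one, did not pass in any comparison of treatments and was higher in MEF 61.5, at 162 ± 7.18 CPM against 146 ± 8.73 CPM in MEF 61.3 (0.15 ± 0.05, edgeR adjusted p = 0.0395). Rpl36al had at most 3.53 CPM and did not pass.

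Of 42 genes of ribosome biogenesis, 3 were higher and 1 lower with SAM against B12 (median 0.10), 7 were lower and 0 higher with NSC against SAM (median −0.15), and 0 passed in the other 2 comparisons with B12. Among all genes tested, 2.78% were higher and 4.93% lower with SAM against B12, and 5.1% higher and 4.42% lower with NSC against SAM. Npm1, a nucleolar chaperone, had 552 and 421 CPM with SAM against 410 and 385 CPM with B12 (0.28 ± 0.07, adjusted p = 0.0395). With NSC it had 399.8 and 350.0 CPM, and fell by 0.37 ± 0.07 on the log2 scale against SAM (adjusted p = 0.00974). Fbl, which methylates ribosomal RNA with SAM as donor, had 63.0 and 51.7 CPM with SAM, against 51.5 and 44.8 CPM with B12 (0.25 ± 0.07, adjusted p = 0.0413). Heatr1, needed for ribosomal RNA transcription, was the 1 called lower with SAM, at 35.6 and 39.2 CPM against 40.8 and 48.9 CPM with B12 (−0.26 ± 0.07, adjusted p = 0.0481).

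**Figure D5:**
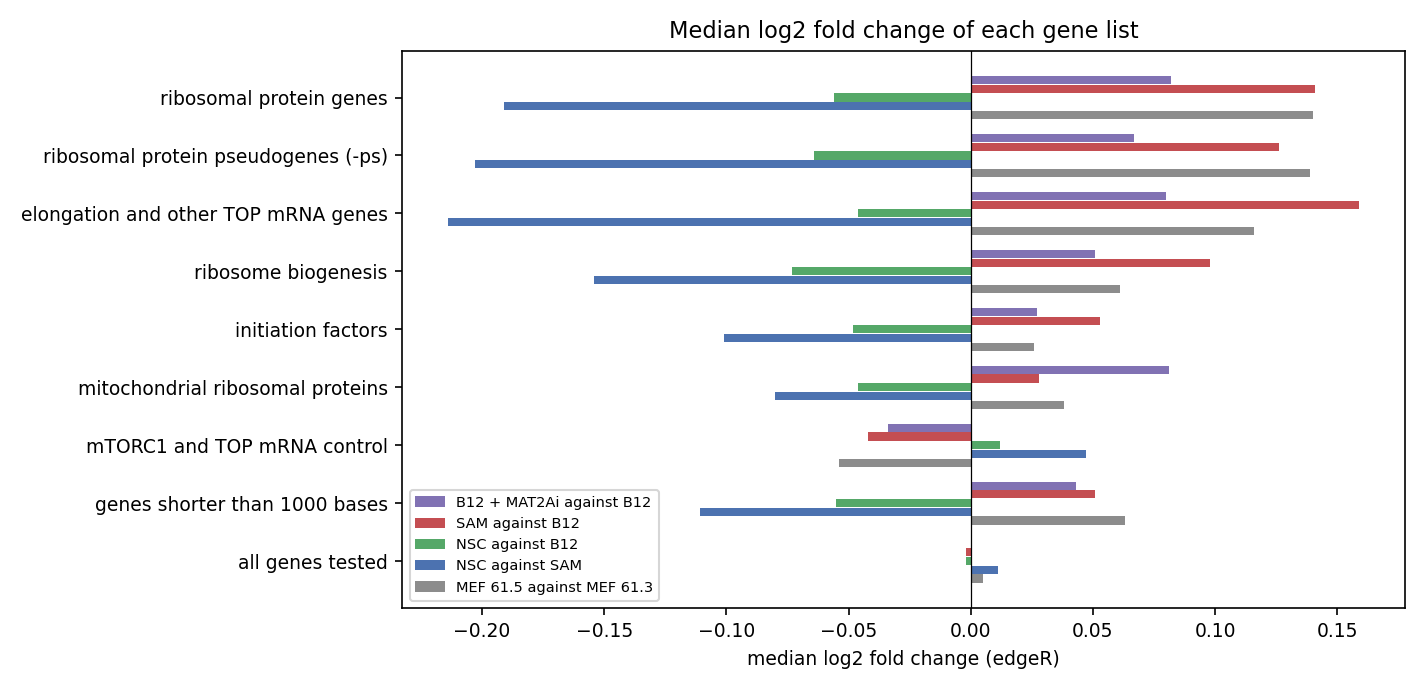
Median log2 fold change of the gene lists with over 4 members in the 5 comparisons (bars), with the ribosomal protein genes at the top and all genes tested at the bottom. The pseudogenes and the elongation and TOP genes have medians near those of the ribosomal protein genes, and genes shorter than 1000 bases have medians of the same sign.

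Of the 27 initiation factor genes that are not in the list of TOP mRNAs, 0 passed between treatments (medians 0.03, 0.05, −0.05 and −0.10 for B12 + MAT2Ai, SAM and NSC against B12 and NSC against SAM). Of the initiation factors in that list, Eif4b was called higher with SAM against B12 (0.24 ± 0.06, adjusted p = 0.0246) and lower with NSC against SAM (−0.22 ± 0.06, adjusted p = 0.0338), and Eif3e lower with NSC against SAM (−0.28 ± 0.08, adjusted p = 0.0414). Of 77 mitochondrial ribosomal protein genes 1, Mrps6, was lower with SAM against B12 (median 0.03), where 4.93% of all genes were. None of the 77 passed with B12 + MAT2Ai against B12 (0.08, like the members), NSC against B12 (−0.05) or NSC against SAM (−0.08). For 2946 genes with under 1000 exonic bases, the medians were 0.04 with B12 + MAT2Ai against B12, 0.05 with SAM against B12, −0.06 with NSC against B12, −0.11 with NSC against SAM and 0.06 in MEF 61.5 against MEF 61.3. They have the sign of the members' medians, at a smaller size except with NSC against B12, where the members had −0.056 and the short genes −0.055, and the part of gene length in the result was not tested.

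In the 23 genes of mTORC1 and TOP mRNA control, 2 were higher and 1 lower with SAM against B12 (median −0.04), 2 higher and 1 lower with NSC against SAM (median 0.05), and 0 passed in the other comparisons with B12. Over all genes 2.78% were higher and 4.93% lower with SAM against B12, and 5.1% and 4.42% with NSC against SAM. Myc had 49.5 and 30.1 CPM with NSC, 70.6 and 46.4 CPM with SAM, and 46.1 and 33.5 CPM with B12 (MEF 61.5 and MEF 61.3). It was higher with SAM than with B12 in both embryos (0.54 ± 0.08, adjusted p = 0.00105) and lower with NSC than with SAM (−0.56 ± 0.08, adjusted p = 0.0012). Reads of the endogenous gene and of the Myc in the cassette cannot be told apart in these counts. Ddit4, an inhibitor of mTORC1, was also higher with SAM, at 26.0 and 21.1 CPM against 19.7 and 14.7 CPM with B12 (0.46 ± 0.08, adjusted p = 0.00333), and Sesn1, another, was lower, at 40.1 and 46.0 CPM against 49.5 and 54.6 CPM with B12 (−0.27 ± 0.07, adjusted p = 0.03). Larp1 did not pass in any comparison, with 138 and 138 CPM with SAM and 135 and 140 CPM with B12.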

How the data were processed

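RNA of 8 libraries was prepared with a stranded poly(A) kit. The deposited table holds unnormalised read counts for each gene. According to the labels and methods, the authors mapped to mm10 (GRCm38) using STAR 2.5.2b, ran featureCounts in its reverse-stranded setting and summed technical replicates. No column was left unused. Of 55487 identifiers, 55227 were matched to a symbol and 260 were not, in GENCODE annotation of GRCm38.

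The quasi-likelihood test of edgeR 4.0.16 (R 4.3.3) was used. Genes were kept by filterByExpr (minimum count 10) and scaled by TMM. All 8 libraries entered 1 model of treatment plus MEF, which left 3 residual degrees of freedom. P-values were adjusted by Benjamini-Hochberg over all 19392 genes, with calls made below 0.05. CPM of single genes use TMM scaling, and RPKM and marker sums use the plain library total. Within a MEF, differences are of log2 CPM after a prior count of 2 was added. MEF was a block because libraries of 1 MEF come from 1 embryo; as a check, deviations from treatment means correlated at 0.424 to 0.559 between libraries of the same MEF.

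On simulated counts for SAM against B12 (19392 genes), 99% of genes changed by 1 on the log2 scale and 80% of those changed by 0.5 were called. These counts had the same spread for every gene and no difference between embryos, and the changed genes were drawn from those with higher counts. Changes as small as those of the members between treatments were not simulated. At the median member count, 8972 reads per library, counting error was 1.06%. RPKM and shared stretches used the APPRIS principal, best supported and then shortest transcript. Named were the called members with the largest changes of the same sign in each MEF (up to 5 per direction), the 5 highest in RPKM, a set of members with known roles, and up to 3 called genes per list; Rps26, Rps10, Rpl24, Rps3a2, Rps12l1, Rps15a, Rps20, Rps25, Rpl37 and Rpl17 were added after their values were seen. Some members and list genes that the rule names are not reported here. Members and lists were chosen with earlier results of these data known. Alternatives were scaling, filter, tool, libraries in the fit, the block and leaving out each library. DESeq2 1.42.0 was one of them.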

Additional observations from a re-analysis of the deposited data

Results flagged for a closer look

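The share of reads in ribosomal protein genes with NSC against B12 moved in opposite directions in the 2 embryos. It was 2.55% with NSC and 2.46% with B12 in MEF 61.5, a difference of 0.088 percentage points, and 2.02% with NSC and 2.30% with B12 in MEF 61.3, a difference of −0.284 percentage points. The difference between the embryos was not tested, since each value is 1 library.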

How the results depend on the processing

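Medians over the members kept their sign in every alternative run, except NSC against B12, which was 0.005 without the B12 library of MEF 61.3. Leaving out each library in turn gave medians of 0.015 to 0.153 (B12 + MAT2Ai against B12, with 0.137 and 0.019 when its own MEF 61.5 or MEF 61.3 library was dropped), 0.073 to 0.204 (SAM against B12), −0.121 to 0.005 (NSC against B12), −0.261 to −0.126 (NSC against SAM, with −0.247 and −0.147 without the NSC library of MEF 61.5 and MEF 61.3) and 0.102 to 0.172 (MEF 61.5 against MEF 61.3). It gave 0 to 3 calls with SAM against B12, 0 to 32 with NSC against SAM (15 without the SAM library of MEF 61.3), 2 to 52 between the MEFs (6 without either SAM library, 8 when MEF 61.5 with B12 + MAT2Ai was dropped), and 0 in the other 2 comparisons. The median with B12 + MAT2Ai was 0.076 with DESeq2 or its size factors, 0.077 with no filter on low counts and 0.068 over members sharing under 10% of their stretches.

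The fit without the replicate block, which drops the pairing by MEF, called 0 members in each of the 4 comparisons between treatments and at most 2 of all 19392 genes in any. The fit without treatment as a term called 0 members between the MEFs, and 339 of all genes higher and 283 lower. With no filter on low counts, 7 members were called with SAM against B12, 40 with NSC against SAM and 54 between the MEFs, where of all 35105 genes 801 were higher with SAM, 1331 lower with NSC against SAM and 2076 higher in MEF 61.5. With only the libraries compared, 1 member was called higher with B12 + MAT2Ai against B12, where of 18738 genes 77 were higher and 236 lower. With SAM against B12 0 members were called, where of 18773 genes 403 were higher and 768 lower. With NSC against SAM 72 members were called lower, where 1689 of 18813 genes were. DESeq2 called 17 members between the MEFs, where of all 19392 genes it called 926 higher and 1476 lower. Of the 13 members tested that share under 10% of their stretches, 2 were called lower with NSC against SAM, where 4.42% of all genes were. Between the MEFs 2 of the 13 were called higher, where 8.41% of all genes were (an alternative chosen after seeing the data). The cause of these shifts was not tested, beyond fewer members or libraries entering. No alternative reversed a called member: of 140 refits of the 10 called results between treatments, 83 kept the call and 57 lost it.

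With -ps pseudogenes the shares were 3.88% and 3.56% (B12 + MAT2Ai), 4.32% and 3.44% (SAM), 3.69% and 2.92% (NSC), and 3.57% and 3.34% (B12) in MEF 61.5 and MEF 61.3, and without paralogs the subunit ratios were 1.351 and 1.345, 1.343 and 1.344, 1.354 and 1.356, and 1.348 and 1.349 in the same order. With n = 2 and a median standard error of 0.069, single members cannot be told from 0 at the size of most medians here.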

Other observations

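Among 10429 genes outside the family with at least 10 CPM, those whose log2 CPM, centred within each MEF, ran most closely with the summed ribosomal protein genes over the 8 libraries were Prr13 (Pearson r = 0.996), the pseudogene Rpsa-ps10 (0.993), the processed pseudogene Gm13413 (0.992), Eif3h, a subunit of an initiation factor (0.992), and the processed pseudogene Gm7380 (0.992). The values describe 8 libraries that share treatments and embryos, and the genes were picked as the highest of many.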
